A study of Homo sapiens with 9 samples.

Results

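The 46 genes described here encode the transcription factor NRF2 (gene NFE2L2), its inhibitor KEAP1 and enzymes of glutathione, thioredoxin, NADPH and peroxide metabolism. They were followed in 22Rv1, a human prostate cancer cell line, on 9 Affymetrix Human Transcriptome Array 2.0 chips with 3 arrays per group. SSX2 knockdown cells (KD) carried an shRNA against SSX2, a cancer/testis antigen, and scramble control cells (SCR) a scramble shRNA. Both were transfected by lipofection and kept in neomycin, while wildtype cells (WT) were untransfected. All groups grew in the same medium, which held serum, pyruvate and β-mercaptoethanol, a thiol reductant, and were harvested at confluence. The labels do not say whether a transfected line was 1 clone or a pool. A gene was read by its brightest transcript cluster with that symbol alone, which gave 41 measured members among 22468 genes. SRXN1 and SOD2 lay only in clusters that carry other symbols as well, and FTH1, PRDX5 and AKR1B1 had no cluster under their symbol. These 5 were not analysed here.

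NRF2 is held in the cytoplasm by KEAP1, which passes it to a ubiquitin ligase for degradation. When reactive cysteines of KEAP1 are modified by oxidants or electrophiles, NRF2 escapes, enters the nucleus and binds with small MAF proteins to antioxidant response elements. Its known targets make and recycle glutathione, reduce thioredoxin and quinones, supply NADPH and export conjugates. The pathway is regulated mainly at the NRF2 protein, which these arrays do not measure.

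The values are log2 intensities, so a difference of 1 is a 2-fold change. The SSX2 transcript, read together with its copy SSX2B, stood at 5.13 in KD, against 11.94 in SCR and 11.92 in WT cells. Arrays within a group correlated with r = 0.996 to 0.997 across clusters, and KD with control arrays with r = 0.956 to 0.961. The arrays of a group are labelled technical replicates, so the p-values measure only that spread. The labels give an average RNA integrity number of 2.5, which stands for degraded RNA. Of 9 luminal prostate markers 6 were measured, and KRT8 and KRT18 were at 11.17 and 10.95 in KD cells, 11.09 and 10.85 in SCR and 11.27 and 11.04 in WT, while KLK2, KLK3, HOXB13 and TMPRSS2 were lower in KD than in SCR (KLK2 at 5.52 in KD, against 9.44 in SCR and 8.39 in WT cells). Measured basal, leukocyte and endothelial markers ranged between 3.06 and 5.86 in KD, 3.10 and 5.91 in SCR and 3.08 and 5.91 in WT cells, and fibroblast and hepatocyte markers reached 6.94 in KD, 7.18 in SCR and 7.99 in WT cells. Among them, LUM was lower in KD (3.56, against 4.70 in SCR and 4.95 in WT), and so was ALB (4.40, against 6.52 in SCR and 7.99 in WT), which was also lower in SCR than WT. The part of these markers in the results was not tested. In RNA from bulk cultures, fewer cells of a type and less RNA per cell cannot be told apart.

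Most redox genes that passed the test were higher in KD cells, and the glutathione transferases were the main group that went the other way. Of 41 members, 18 rose against SCR, 7 fell and 16 did not pass (limma, Bonferroni-adjusted p under 0.05 over 67528 transcript clusters). Over all clusters 4.08% were higher and 4.68% lower, over the brightest cluster of each gene 7.78% and 7.60%, and among genes at least as bright as the median member (8.76) 12.8% and 11.3%. The members' 43.9% was above each of these shares for higher genes, and their 17.1% for lower genes was closer to that of the bright genes. The members were chosen with earlier results of these data known, so this comparison describes them and is not a test. The median log2 fold change was 0.53 over the members and -0.057 over all clusters. Against WT, 18 rose, 7 fell and 16 did not pass (4.13% and 4.49% over all clusters), with a median of 0.51 against -0.061. The 25 members that passed were the same against SCR and WT, and in the same directions, but both comparisons use the same KD arrays. Between the controls limma called 0 members in either direction (SCR over WT, 0.141% higher and 0.0740% lower over all clusters), where the unadjusted p was under 0.05 for 3 that were higher and 6 that were lower (11.8% of all clusters in either direction). By Benjamini-Hochberg 1 member was higher (1.11% over all clusters) and 3 were lower (0.709%). That adjustment called 26 members higher against SCR (14.8%) and 10 lower (22.7%), and 25 higher against WT (14.8%) and 10 lower (23.7%). With a minimum of 2-fold, 9 rose against SCR (2.49%) and 6 fell (2.83%), and 10 rose against WT (2.52%) and 6 fell (2.70%). The gene-by-gene variance test of the methods, which takes the spread from a gene's own arrays alone, called 4 higher (0.382% over all clusters) and 1 lower (0.363%) against SCR, and 2 higher (0.270%) and 1 lower (0.262%) against WT.

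**Figure D1:**
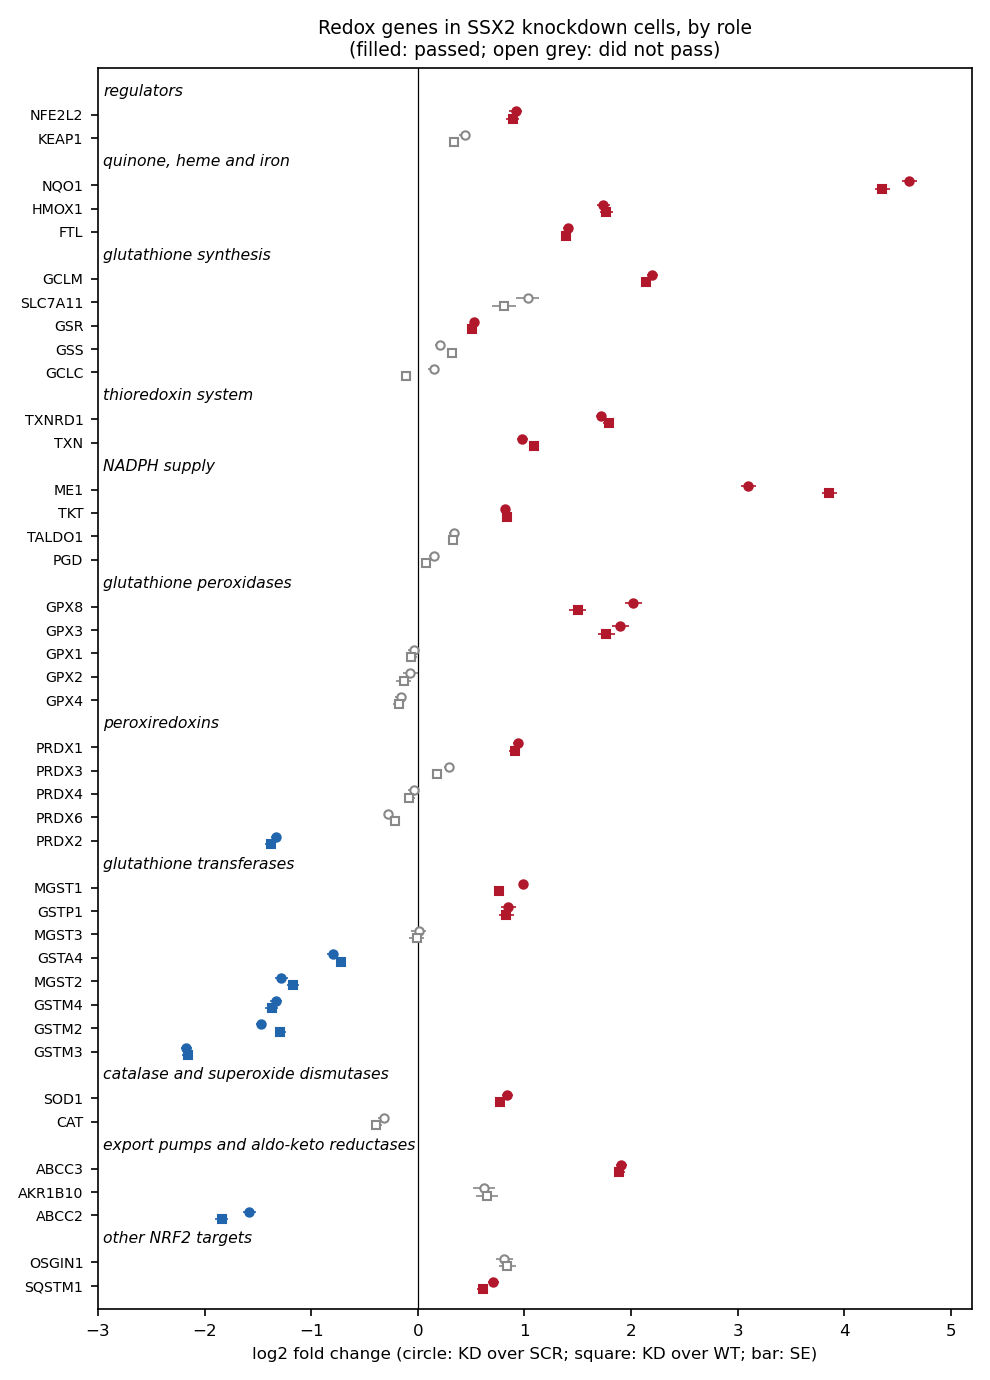
Log2 fold changes of the 41 measured members, grouped by role, in KD over SCR (circles) and KD over WT (squares), with bars for the SE of limma. Filled points passed the test (red higher, blue lower) and open grey points did not. NQO1 and ME1 lie farthest to the right, and 5 of 8 glutathione transferases lie left of 0 as filled points.

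NFE2L2, the NRF2 gene, was higher in KD cells. It measured 9.54, 9.39 and 9.28 on the KD arrays, against 8.48, 8.46 and 8.50 on the SCR arrays and 8.50, 8.53 and 8.49 on the WT arrays. Every KD array lay above every control array, and the KD arrays were spread more widely than the controls. The log2 fold change was 0.92 against SCR (SE 0.06, limma's adjusted p = 0.0081), and 0.89 against WT (adjusted p = 0.011). The call against SCR was lost without KD 2 or any 1 SCR array (adjusted p between 0.086 and 0.096), and that against WT without KD 2, SCR 1, SCR 3 or any 1 WT array (0.050 to 0.14).

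KEAP1 had 9.28, 9.27 and 9.35 in KD, against 8.86, 8.88 and 8.83 in SCR and 8.99, 8.90 and 9.01 in WT cells. The groups did not overlap, but the difference of 0.44 against SCR did not pass (SE 0.05, adjusted p = 0.40), nor did that of 0.34 against WT.

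Members for quinone, heme and iron handling rose, 3 of 3 measured, but related genes outside the members did not all follow. The heme gene FECH was lower, with log2 fold changes of -0.87 against SCR (limma's adjusted p = 0.0037) and -0.89 against WT (adjusted p = 0.0030). SLC48A1, BLVRB and BLVRA had 0.58, 0.12 and -0.47 against SCR, and none passed. Of 7 measured ferroptosis and iron genes outside the members, 3 rose against SCR, 1 fell and 3 did not pass. NQO1, which reduces quinones by 2 electrons and is a classical NRF2 target, measured 11.77, 11.72 and 11.55 in KD, against 7.07, 7.10 and 7.03 in SCR and 7.39, 7.25 and 7.30 in WT cells. The KD arrays stood far above both controls, a 24.5-fold difference from SCR and 20.6-fold from WT, with the smallest adjusted p of the members (log2 fold change 4.61, SE 0.07, adjusted p = 3.6e-09 against SCR from limma). HMOX1, which breaks heme down to biliverdin, iron and carbon monoxide, had 8.67, 8.86 and 8.77 in KD, against 7.01, 6.98 and 7.08 in SCR and 7.03, 6.95 and 7.00 in WT. Its log2 fold change was 1.74 against SCR (SE 0.06, adjusted p = 9.8e-06) and 1.77 against WT. FTL, the light chain of the iron store ferritin, had 12.34, 12.39 and 12.33 in KD, against 10.98, 10.90 and 10.96 in SCR and 11.02, 10.96 and 10.92 in WT. It rose 2.65-fold against SCR (log2 fold change 1.41, SE 0.05, adjusted p = 1.1e-05). FTL has processed pseudogenes that may share its probe signal, as have TXN, PRDX1, GPX1 and TALDO1.

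Among genes of glutathione synthesis and recycling, 2 of 5 rose and 3 did not pass. Glutamate cysteine ligase makes the first and rate-limiting step from a catalytic chain, GCLC, and a modifier chain, GCLM, and only the modifier passed. GCLM had 9.96, 10.03 and 9.97 in KD, against 7.78, 7.77 and 7.82 in SCR and 7.82, 7.90 and 7.83 in WT cells. These groups were tight and far apart, with a 4.59-fold difference from SCR (log2 fold change 2.20, SE 0.05, adjusted p = 1.2e-07). GCLC had 9.07, 8.95 and 8.95 in KD, against 8.81, 8.82 and 8.89 in SCR and 9.08, 9.14 and 9.07 in WT, so its KD arrays lay between the controls, touching WT. GSR, which reduces oxidized glutathione, rose by 0.53 against SCR (SE 0.04, adjusted p = 0.031) and 0.51 against WT (adjusted p = 0.049), the smallest changes that passed. Both calls were lost when any 1 of the 9 arrays was left out (adjusted p between 0.097 and 0.40 against SCR and 0.22 and 0.51 against WT). GSS, which makes the second step of synthesis, differed by 0.21 against SCR and 0.32 against WT, short of the threshold.

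SLC7A11, the cystine carrier of the xCT exchanger, was spread across the KD arrays. It measured 11.19, 10.78 and 10.66 in KD, against 9.85, 9.83 and 9.87 in SCR and 10.03, 10.08 and 10.08 in WT cells. Every KD array was above every control array, and KD 1 stood above the other KD arrays. The log2 fold change of 1.03 against SCR did not pass (SE 0.11, adjusted p = 0.46), and its SD of 0.28 in KD was the highest of the members. Without KD 1 the gene passed against SCR (adjusted p = 0.014). Its partner chain SLC3A2, outside the 46 genes, fell by 0.81 against SCR (adjusted p = 0.017) and by 0.94 against WT. Its call was lost without KD 2 or any 1 SCR or WT array against SCR (0.073 to 0.20), and without KD 2 or any 1 WT array against WT (0.056 to 0.066).

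Both measured members of the thioredoxin system rose, but related genes outside the members did not all follow. Of 13 measured thioredoxin and glutaredoxin genes outside them, 3 rose against SCR, 2 fell and 8 did not pass. Those that rose were NXN, MSRB3 and GLRX3, with log2 fold changes of 2.17, 1.69 and 0.93 against SCR, and each also rose against WT. TXNL1 was lower, with log2 fold changes of -0.65 against SCR (limma's adjusted p = 0.026) and -0.74 against WT (adjusted p = 0.0078). Whether its calls held with an array left out was not examined. TXN2 and TXNRD2 had -0.40 and -0.17 against SCR, and neither passed. TXNRD1, the selenoenzyme that reduces thioredoxin with NADPH, had 10.88, 10.78 and 10.79 in KD, against 9.10, 9.09 and 9.10 in SCR and 8.98, 9.03 and 9.06 in WT cells. The difference of 3.29-fold from SCR was many times the spread of the arrays (log2 fold change 1.72, SE 0.05, adjusted p = 1.3e-06 from limma). TXN, thioredoxin itself, averaged 11.45 ± 0.045 in KD cells, against 10.46 ± 0.081 in SCR and 10.35 ± 0.039 in WT cells (SD, n = 3 each), a log2 fold change of 0.98 against SCR (adjusted p = 0.0010 from limma).

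NADPH supplies the electrons for both systems, and of 4 measured genes of its supply and the pentose phosphate pathway 2 rose. ME1, cytosolic malic enzyme, had 10.38, 10.37 and 10.37 in KD, against 7.25, 7.30 and 7.27 in SCR and 6.66, 6.54 and 6.35 in WT cells. Here the 3 groups stood apart, with KD 8.58-fold above SCR and still farther above WT (log2 fold changes 3.10 and 3.86, SE 0.07 each, adjusted p = 2.7e-07 and 3.5e-08). The SCR level was 0.76 above WT, which did not pass (adjusted p = 0.10). TKT, transketolase of the pentose phosphate pathway, rose by 0.82 against SCR (SE 0.04, adjusted p = 8.2e-04). Its pathway neighbours TALDO1 and PGD differed by 0.34 and 0.15, short of the threshold.

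**Figure D2:**
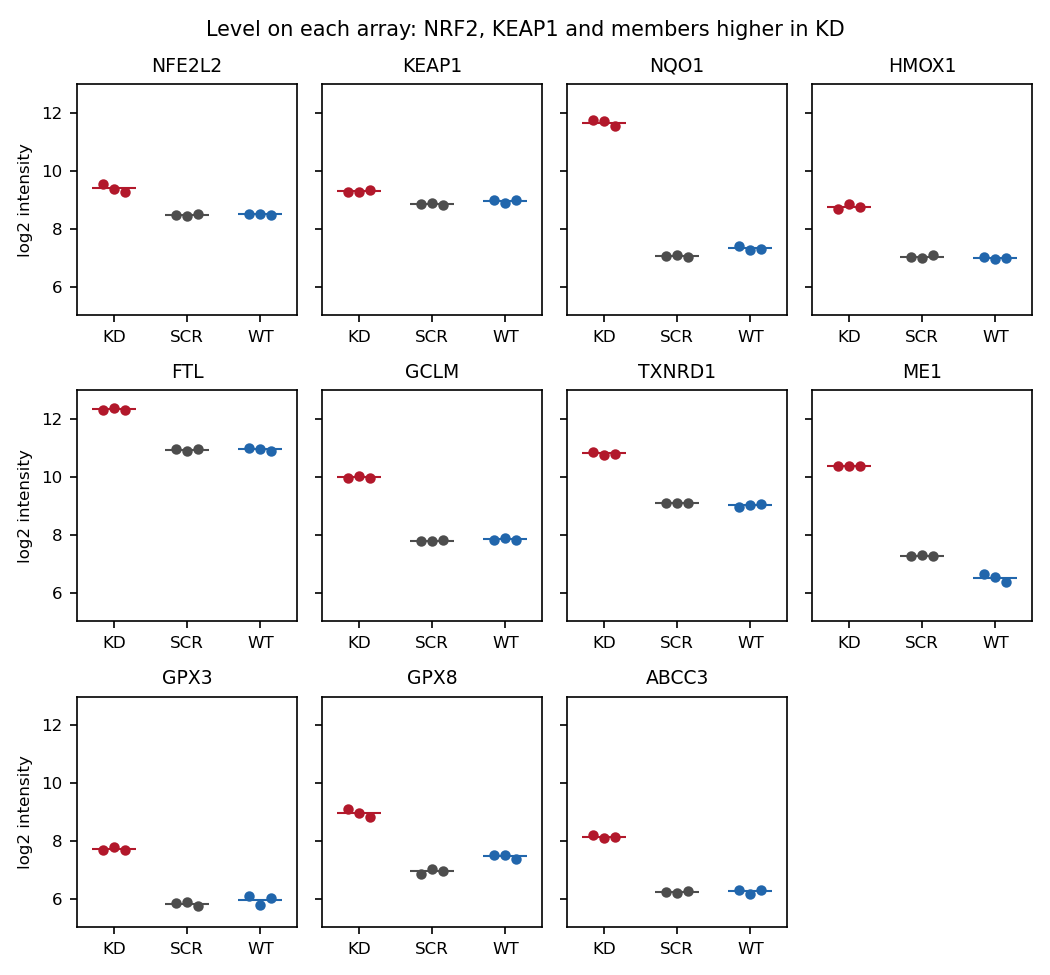
Log2 intensity on each of the 9 arrays for NFE2L2, KEAP1 and the 9 members that rose at least 2-fold against both controls. Points are arrays and lines are group means. The KD points lie above all control points in each panel, from KEAP1, with the smallest gap, to NQO1, with means of 11.68 in KD cells, 7.07 in SCR cells and 7.32 in WT cells.

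The promoters of these genes were searched for the core of the antioxidant response element, TGACNNNGC, on both strands. RefSeq windows (GRCh38.p14, 250 bases before to 50 after a start) were held for 35 of the 46 genes, and 9 of them (25.7%) had the core in some window, against 16.1% of all 27305 genes with windows. Of measured members with a window, 5 of 13 that rose against SCR had it, 1 of 6 that fell and 3 of 12 that did not pass. The AP-1 motif TGANTCA, which overlaps the core in ME1 and GSTP1, was found in 3 of the 35, 8.57% against 9.37%. Such a match is a description of the letters and not a site. The 250 bases before the start follow for the 4 genes that rose and have the core there, and for GPX2, which has it and did not pass, with the core in capitals. PGD and KEAP1, which did not pass, and GSTA4, which fell, also have the core there and are not printed.

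ME1, chr6:83431052-83431301, minus strand: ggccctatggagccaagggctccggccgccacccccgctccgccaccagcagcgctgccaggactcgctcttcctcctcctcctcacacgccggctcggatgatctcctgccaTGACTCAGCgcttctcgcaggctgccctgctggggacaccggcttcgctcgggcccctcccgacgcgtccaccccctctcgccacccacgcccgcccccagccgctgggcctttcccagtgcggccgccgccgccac
GCLM, chr1:93909431-93909680, minus strand: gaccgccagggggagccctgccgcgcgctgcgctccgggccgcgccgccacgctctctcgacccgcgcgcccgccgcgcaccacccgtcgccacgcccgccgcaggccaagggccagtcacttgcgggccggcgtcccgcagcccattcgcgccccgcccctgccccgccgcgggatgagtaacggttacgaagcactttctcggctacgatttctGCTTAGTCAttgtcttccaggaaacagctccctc
TXNRD1 first window, chr12:104215529-104215778, plus strand: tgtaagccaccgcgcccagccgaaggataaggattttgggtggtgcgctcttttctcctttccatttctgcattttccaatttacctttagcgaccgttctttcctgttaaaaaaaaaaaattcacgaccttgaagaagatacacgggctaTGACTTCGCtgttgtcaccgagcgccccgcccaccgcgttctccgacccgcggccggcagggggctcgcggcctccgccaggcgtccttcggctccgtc
TXNRD1 second window, chr12:104286782-104287031, plus strand: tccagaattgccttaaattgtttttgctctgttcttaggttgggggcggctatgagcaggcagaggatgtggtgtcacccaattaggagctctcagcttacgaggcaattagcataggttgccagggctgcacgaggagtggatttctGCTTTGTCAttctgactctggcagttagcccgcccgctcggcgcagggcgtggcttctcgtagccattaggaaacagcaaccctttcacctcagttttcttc
GSTP1, chr11:67583562-67583811, plus strand: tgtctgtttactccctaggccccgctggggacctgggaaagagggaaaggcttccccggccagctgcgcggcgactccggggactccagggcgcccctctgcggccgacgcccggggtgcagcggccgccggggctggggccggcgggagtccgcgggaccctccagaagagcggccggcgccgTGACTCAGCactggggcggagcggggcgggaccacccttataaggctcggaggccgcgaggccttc
GPX2, chr14:64942746-64942995, minus strand: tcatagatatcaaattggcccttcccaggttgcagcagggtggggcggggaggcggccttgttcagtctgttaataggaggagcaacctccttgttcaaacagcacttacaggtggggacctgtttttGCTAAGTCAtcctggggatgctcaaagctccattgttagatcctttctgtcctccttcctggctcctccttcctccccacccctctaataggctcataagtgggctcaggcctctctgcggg

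ME1 and GSTP1 hold the same letters, TGACTCAGC, at positions -137 and -66 from their starts. GCLM holds TGACTAAGC on the opposite strand. A further core of TXNRD1 begins at -8 and runs across the start, and another of ME1 begins at 12 after it, so neither is in capitals. MGST1, which also rose, has its core, TGACAAAGC, only at 31 after a start and is not printed. The windows of NQO1, FTL and TXN had no such letters, which says nothing of sites farther away.

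The glutathione peroxidases, which reduce peroxides with glutathione, split into 2 members that rose and 3 that did not pass. GPX3, the secreted plasma form, had 7.69, 7.80 and 7.68 in KD, against 5.86, 5.87 and 5.73 in SCR and 6.08, 5.77 and 6.01 in WT cells. It rose 3.74-fold against SCR (log2 fold change 1.90, SE 0.08, adjusted p = 1.1e-04). A second, dimmer transcript cluster of GPX3 differed by 0.22 and did not pass. GPX8, a membrane protein of the endoplasmic reticulum, had 9.10, 8.98 and 8.81 in KD, against 6.86, 7.04 and 6.94 in SCR and 7.51, 7.52 and 7.37 in WT. The KD arrays were above both controls and SCR was below WT, with log2 fold changes of 2.02 against SCR (SE 0.08, adjusted p = 6.0e-05) and 1.50 against WT (adjusted p = 9.2e-04). GPX1, the main cytosolic form, GPX4, which reduces lipid hydroperoxides in membranes, and GPX2 had log2 fold changes against SCR of -0.04, -0.16 and -0.07, and none of the 3 passed. With arrays centred on their medians the value of GPX1 was 0.02.

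Of 5 measured peroxiredoxins, which are thiol peroxidases, 1 rose, 1 fell and 3 did not pass. PRDX1 and PRDX2, closely related cytosolic forms, changed in opposite directions. PRDX1 averaged 11.85 ± 0.065 in KD cells, against 10.91 ± 0.029 in SCR and 10.94 ± 0.0045 in WT cells (SD, n = 3 each), a log2 fold change of 0.94 against SCR (adjusted p = 4.6e-04 from limma). PRDX2 had 8.59, 8.69 and 8.56 in KD, against 9.96, 9.95 and 9.92 in SCR and 10.05, 9.97 and 9.97 in WT. It fell 2.51-fold (log2 fold change -1.33, SE 0.05, adjusted p = 2.9e-05). The mitochondrial PRDX3, the endoplasmic reticulum form PRDX4 and PRDX6 had log2 fold changes of 0.29, -0.04 and -0.28, and PRDX4 was at 0.03 with arrays centred on their medians. Among the enzymes for superoxide and hydrogen peroxide, cytosolic SOD1 rose by 0.84 against SCR (SE 0.05, adjusted p = 0.0014), and the peroxisomal catalase CAT differed by -0.32 and did not pass (adjusted p = 1).

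Glutathione transferases join glutathione to electrophiles, and of 8 measured members 5 fell, 2 rose and 1 did not pass. Their median log2 fold change was -1.04 against SCR. All 3 members of the mu class fell. GSTM3 had 7.36, 7.43 and 7.35 in KD, against 9.59, 9.53 and 9.52 in SCR and 9.56, 9.57 and 9.49 in WT cells, a 4.49-fold fall against SCR (log2 fold change -2.17, SE 0.05, adjusted p = 2.1e-07). GSTM2 had 7.07, 7.08 and 6.97 in KD, against 8.54, 8.50 and 8.47 in SCR and 8.35, 8.33 and 8.29 in WT (log2 fold change -1.47, adjusted p = 8.7e-06 against SCR). GSTM4 had 7.78, 7.64 and 7.55 in KD, against 9.03, 9.00 and 8.95 in SCR and 9.07, 9.01 and 8.99 in WT (log2 fold change -1.33, adjusted p = 2.1e-04). In all of these the KD arrays were below every control array, and the controls were close to each other. The mu genes are neighbours on chromosome 1, in the order GSTM4, GSTM2, GSTM1, GSTM5 and GSTM3, and similar in sequence, so probes may be shared. GSTM1 and GSTM5, outside the 46 genes, differed by -0.49 and -0.45, short of the threshold. Of other transferases outside them, GSTO1 rose by 0.59 against SCR (adjusted p = 0.046 from limma) but did not pass against WT. Whether the call of GSTO1 held with an array left out was not examined. GSTA1, GSTT1, GSTO2, GSTK1 and GSTZ1 passed against neither control.

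MGST2, a microsomal enzyme that also makes leukotriene C4, had 6.17, 6.33 and 6.17 in KD, against 7.52, 7.51 and 7.49 in SCR and 7.41, 7.42 and 7.34 in WT cells (log2 fold change -1.28 against SCR, SE 0.06, adjusted p = 9.2e-05). GSTA4, which clears 4-hydroxynonenal, a product of lipid peroxidation, fell by 0.80 against SCR (SE 0.05, adjusted p = 0.0032) and by 0.72 against WT, where the call was lost without any 1 KD array, WT 1 or WT 2 (0.061 to 0.11). GSTP1, whose promoter is commonly methylated in prostate cancer, averaged 7.60 ± 0.069 in KD cells, against 6.75 ± 0.11 in SCR and 6.77 ± 0.053 in WT cells (SD, n = 3 each). Its rise of 0.85 against SCR (SE 0.07, adjusted p = 0.023 from limma) was lost when any 1 array but SCR 1 was left out (0.071 to 0.27), as was that of 0.83 against WT (0.051 to 0.32). MGST1 rose by 0.99 against SCR (adjusted p = 1.1e-04) and by 0.76 against WT. A second cluster of MGST1 differed by 0.34, and with the mean of both clusters the gene did not pass. MGST3, which did not pass, had group means of 7.09 in KD cells, 7.07 in SCR cells and 7.10 in WT cells.

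**Figure D3:**
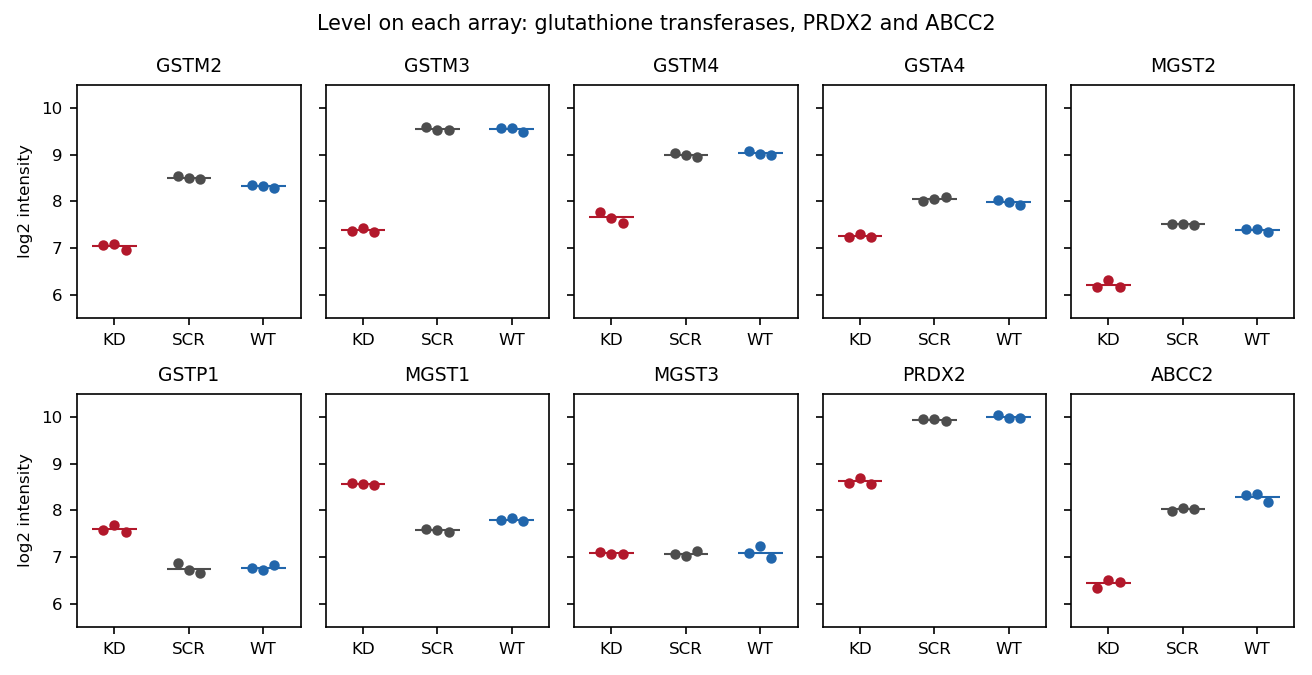
Log2 intensity on each of the 9 arrays for the 8 measured glutathione transferases, PRDX2 and ABCC2. Points are arrays and lines are group means. In KD cells GSTM2, GSTM3, GSTM4, GSTA4, MGST2, PRDX2 and ABCC2 lie below both controls, GSTP1 and MGST1 above them, and MGST3 level with them.

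Among the members, the export pumps ABCC3 and ABCC2 went in opposite directions. Outside the members, the pump ABCC1 rose by 0.95 against SCR (limma's adjusted p = 0.0033) and by 1.05 against WT (adjusted p = 0.0013), and ABCC4 rose by 2.36 against SCR. ABCC3 had 8.21, 8.09 and 8.12 in KD, against 6.23, 6.20 and 6.26 in SCR and 6.29, 6.17 and 6.28 in WT cells, a 3.75-fold rise against SCR (log2 fold change 1.91, SE 0.05, adjusted p = 1.6e-06). ABCC2, an apical pump, had 6.35, 6.51 and 6.48 in KD, against 7.99, 8.06 and 8.04 in SCR and 8.32, 8.35 and 8.19 in WT, a 2.99-fold fall against SCR (log2 fold change -1.58, SE 0.06, adjusted p = 3.4e-05). The aldo-keto reductase AKR1B10 averaged 5.68 in KD cells, against 5.06 in SCR and 5.03 in WT cells, and its difference of 0.62 did not pass (SE 0.10, adjusted p = 1). SQSTM1, the autophagy receptor p62, which binds KEAP1, rose by 0.71 against SCR (SE 0.05, adjusted p = 0.0094) and by 0.61 against WT. The call against SCR was lost without KD 2, KD 3 or any 1 SCR array (0.066 to 0.12), and that against WT without any 1 array (0.14 to 0.38). OSGIN1 differed by 0.81 (SE 0.08) and did not pass (adjusted p = 0.12), but passed with arrays centred on their medians or quantile normalized, and against WT also without SCR 2 (adjusted p = 0.042).

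Other genes of the redox network, 75 in a list kept apart from the 46, gave 66 measured genes. This list too was chosen with earlier results of these data known. Of these, 19 rose against SCR, 9 fell and 38 did not pass, with a median log2 fold change of 0.11 (4.08% higher and 4.68% lower over all clusters). Against WT 18 rose, 6 fell and 42 did not pass. Leaving out 1 array at a time gave 14 to 17 higher and 3 to 6 lower against SCR, and a fit of only the compared groups gave 12 and 2. In the part of the list made of further NRF2 targets, 10 of 22 rose, 4 fell and 8 did not pass. The highest rises that passed were those of ACSL4, which activates polyunsaturated fatty acids and favours ferroptosis (2.67), and NFE2L3, which encodes the NRF2 relative NRF3 (2.60). CYP4F11, a cytochrome P450 that hydroxylates fatty acids, rose by 2.45 and the export pump ABCC4 by 2.36, and all 4 were also higher than in WT.

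TXNIP, which binds and inhibits thioredoxin, had the lowest fold change of the 66. It measured 6.11, 5.90 and 5.74 in KD, against 9.41, 9.61 and 9.51 in SCR and 9.66, 9.73 and 9.59 in WT cells (log2 fold change -3.59, SE 0.09, adjusted p = 8.4e-07 against SCR). IDH1, which makes NADPH in the cytosol, fell by 1.05. The transferrin receptor TFRC and the aldo-keto reductase AKR1C2 fell by 1.29 and 1.09 against SCR, but neither passed against WT (-0.46 and 0.22), and AKR1C2 was 1.31 higher in SCR than in WT (adjusted p = 0.0054, lost without SCR 1, SCR 2, WT 2 or WT 3 at 0.056 to 0.084). The fall of AKR1C2 was lost when any 1 array was left out (0.055 to 0.28), and its probes may be shared with the similar AKR1C genes. Among partners of NRF2 and KEAP1, CUL3, the scaffold of the ligase that KEAP1 joins, and the small MAF genes MAFF and MAFG had log2 fold changes of -0.10, 0.09 and 0.37, and none of the 3 passed.

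**Figure D4:**
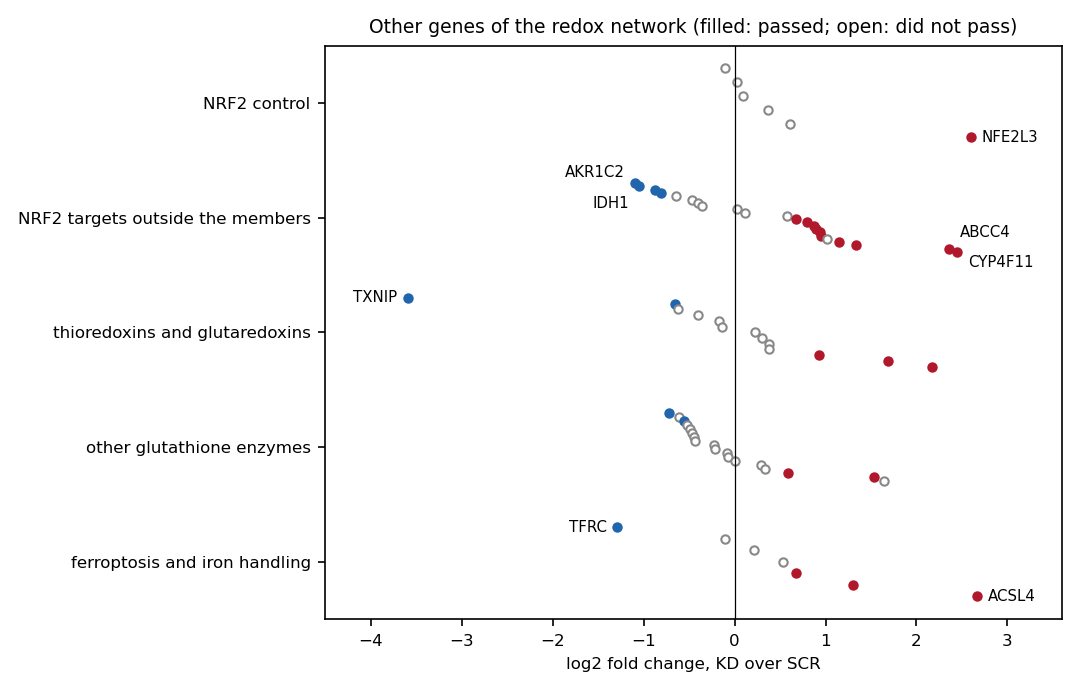
Log2 fold change of KD over SCR for the 66 measured genes of the wider list, in rows by list. Filled points passed the test (red higher, blue lower), open points did not, and the 4 highest and 4 lowest that passed are named. TXNIP lies far to the left at -3.59 and ACSL4 farthest to the right at 2.67.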

How the data were processed

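RNA of 22Rv1 cells had been hybridized to 9 arrays, 3 per group. The authors normalized them by RMA and deposited log2 intensities, and the processing notes name Affymetrix Expression Console and Transcriptome Analysis Console 3.0. The sources used here do not give the build of the array annotation. Of 70523 probe sets, 67528 transcript clusters were tested. Symbols came from the platform annotation, where 23784 clusters carry 1 symbol, 1540 several and 42204 none. All 41 measured members matched RefSeq (GRCh38.p14) by gene identifier. The members and lists were chosen with earlier results of these data known.

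limma 3.58.1 in R 4.3.3 fitted 1 mean per group over all arrays with eBayes, and the threshold was a Bonferroni-adjusted p of 0.05. The study's methods name that correction and an ANOVA, which was run here as the gene-by-gene variance test of the text. The fit was tested on simulated data. Values were given on every array for NFE2L2, KEAP1 and members that passed against both controls by at least 2-fold, and for some others chosen after their values were seen. From the wider list the 4 highest and 4 lowest called genes were named by rule. The 23 background probe sets averaged between 1.93 and 12.09 and were brighter the more G and C they held (95th percentile 9.47). By that percentile 23 members lay close to background in all groups, 12 above it in all and 6 in some only. Since the base composition of the members' probes was not used here, no member was called undetected, and fold changes of dim genes may be understated. Alternatives covered adjustment, fold minimum, the methods' ANOVA, scaling, dim transcripts, the groups fitted, the variance prior, the array number as a block, left-out arrays and the mean of a gene's clusters.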

Additional observations from a re-analysis of the deposited data

How the results depend on the processing

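No called member changed sign under any alternative. The Benjamini-Hochberg adjustment gave 32 higher and 24 lower genes of the wider list against SCR (main 19 and 9). Over all clusters it called 14.8% higher and 22.7% lower. Between the controls it gave 1 member higher in SCR than in WT, ME1, and 3 lower, GCLC, GPX8 and MGST1 (1.11% and 0.709% over all clusters). With a minimum of 2-fold, 9 members were higher against SCR and 10 against WT, and 10 wider genes higher and 4 lower. The methods' ANOVA with Bonferroni, as run here, called far fewer clusters than the paper reports for KD against SCR. It left 4 members higher and 1 lower against SCR (0.382% and 0.363% over all clusters). These members were NQO1, GCLM, TXNRD1 and ME1, and GSTM3. Against WT it left 2 and 1 (0.270% and 0.262%). Of the wider list it left 3 and 0 against SCR. With Benjamini-Hochberg these were 30 and 26, for which the share over all clusters is not given here. Median centring left 5 wider genes lower, and a fit of only the compared groups 12 higher and 2 lower. Without dim transcripts, and with a trended robust variance, 1 member, ME1, was higher in SCR than in WT. Leaving out 1 array at a time gave 14 to 17 members higher and 7 lower against SCR, 14 to 16 and 6 to 7 against WT, 0 between the controls, and 14 to 17 higher and 3 to 6 lower of the wider list. For refits with other scaling, filters, variance, groups or arrays, shares over all clusters are not given here. Of 25 called members, 21 kept the call against SCR without each array in turn, and 20 against WT.

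Deviations of equal-numbered arrays correlated between -0.02 and 0.16, not every pair above 0.1, so the numbers were not taken to pair the arrays, although 5 of 9 arrays correlated best with an array of their own number. With the number as a block, 20 of 25 member calls were kept against SCR and 19 against WT, and 4 wider genes were lower.

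No value that changed sign was called before or after the change. Median centring gave GPX1 0.02 and PRDX4 0.03 against SCR, and GPX1 0.01 and MGST3 0.06 against WT. Quantile normalization gave PRDX4 0.02 against SCR, MGST3 0.06 against WT and FTL 0.01 between SCR and WT. Leaving out 1 array gave MGST3 -0.01 to 0.05 against SCR and -0.07 to 0.05 against WT, and, for SCR over WT, FTL -0.04 to 0.01, GSTM1 -0.02 to 0.04 and MAFG -0.08 to 0.04. With the mean of its transcripts, MGST3 was at 0.26 against WT. The cause was not tested. The number of arrays limits the precision.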

Other observations

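Of 8 genes of the amino acid response, looked up after the spread of SLC7A11 among KD arrays was seen, 7 were highest on KD 1 among the KD arrays. CHAC1, which degrades glutathione, measured 10.29, 9.68 and 9.29 on the KD arrays, and ASNS, asparagine synthetase, 9.97, 9.45 and 9.33. TRIB3 had 9.41, 8.89 and 8.69, SESN2 8.70, 8.35 and 8.11, and PSAT1 12.48, 12.19 and 12.14. DDIT3 had 6.93, 6.50 and 6.41 and ATF3 7.39, 7.23 and 7.15, with log2 fold changes of -0.43 and -0.42 against SCR. Of the 8, PSAT1 passed against SCR (1.01, adjusted p = 0.030 from limma), and whether that call held with an array left out was not examined. ATF4, the transcription factor of that response, was highest on KD 2, with 10.05, 10.11 and 10.02. The SD of the genes looked up was between 0.011 and 0.077 in either control group. The members as a whole did not peak on KD 1, since 15 of 41 were highest there, 23 on KD 2 and 3 on KD 3. The second, dimmer cluster of MGST3 differed by 0.57 between KD and SCR and did not pass (adjusted p = 0.70 from limma), while the brighter one differed by 0.01.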
